A study of Mus musculus with 8 samples.

Results

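The B cell genes followed here are Cd79a, Cd79b, Ms4a1, Blk, Cd22, Pou2af1 and Cd74. Every array probe whose RefSeq transcript belongs to one of these 7 genes was taken, which gave 8 probes of 41056 in all (7 of 18316 named genes). Cd22 had 2 probes and each other gene had 1, and each probe had 1 spot on an array. The study measured total RNA from mouse liver on 8 Agilent 1-colour arrays, 1 for each of 2 genotypes (Mxcre- and Mxcre+) at each of 4 times (0, 24, 36 and 48 h). Time was counted from partial hepatectomy, an operation that removes part of the liver and sets the remainder growing. By the series design the comparison is of livers with Survivin deleted against wild type livers. Mice of both genotypes were of the strain given as 129/SV/B6. All had undergone irradiation with bone marrow transplantation (2 months earlier) and poly(IC) injection (1 week earlier), so the controls shared every treatment. Mxcre is a Cre recombinase under the interferon-inducible Mx1 promoter, which is active after poly(IC) in liver and in blood-forming cells. Sex is not assigned to single arrays in the labels, and the genotype of the marrow donors, from which B cells would descend, is not stated in them. They do not say whether an array held 1 animal or a pool. No genotype and time had a replicate, so a p-value below measures how steady a difference was over times or genotypes, not the spread between animals.

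B cells recognise antigen through a surface immunoglobulin that signals through a pair of membrane proteins, CD79A and CD79B. CD20 (the product of Ms4a1) and the inhibitory lectin CD22 sit beside this receptor, the kinase BLK acts below it, and the coactivator OCA-B (Pou2af1) works in the nucleus with octamer-binding factors. CD74, the invariant chain, escorts MHC class II molecules in B cells, and also in dendritic cells and macrophages, so its transcript is not exclusive to B cells. The liver holds B cells in its sinusoids and in the blood that passes through it.

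The promoters of 2 genes are shown because these genes were measured on every array and were lowest at different times in Mxcre-. In Mxcre+ both were lowest at 48 h, Pou2af1 by little (-4.23 against -4.20 at 36 h). They are the 250 bases before the transcript start in RefSeq, mouse build GRCm38.p6, 5′ to 3′ in the direction of transcription. Capitals mark the letters CANNTG (the E-box, bound by factors such as E2A), which read the same on both strands. The Cd79a promoter is at chr7:24897247-24897496 on the plus strand and that of Pou2af1 at chr9:51213440-51213689 on the plus strand.
Cd79a: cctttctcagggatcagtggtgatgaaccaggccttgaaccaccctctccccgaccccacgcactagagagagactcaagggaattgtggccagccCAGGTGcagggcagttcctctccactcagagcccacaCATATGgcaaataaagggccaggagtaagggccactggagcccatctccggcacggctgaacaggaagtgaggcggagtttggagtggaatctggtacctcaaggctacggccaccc
Pou2af1: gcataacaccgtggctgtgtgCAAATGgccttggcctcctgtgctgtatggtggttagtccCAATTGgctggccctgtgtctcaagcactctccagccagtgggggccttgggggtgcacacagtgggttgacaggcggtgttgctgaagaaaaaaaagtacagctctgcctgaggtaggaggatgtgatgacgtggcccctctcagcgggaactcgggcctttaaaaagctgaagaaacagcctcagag
Cd79a held CAGGTG and CATATG, with first bases at -154 and -117 from the start. Pou2af1 held CAAATG and CAATTG, at -229 and -189. The E-box letters occurred in 66.2% of all 32851 promoters of the same length, so their presence is common. The RefSeq promoter table matched 3 of the 7 genes. The third, Cd22, held TCCCTGGGGA, a match to a motif written for Ebf factors (TCCC and GGGA with any 2 bases between, the same on both strands), at -49 from the start the table gives. That start lies within the annotated extent of Cd22, and 0.779% of all promoters held these letters. The octamer ATGCAAAT, searched on both strands, was in none of the 3 windows and in 1.6% of all promoters.

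Levels are log2 of the scanner's processed intensity minus the 75th percentile of the array, and a difference of 1 is a doubling. They compare 1 probe between arrays, never 1 probe with another. Of the 8 probes, 4 (Cd79a, Cd79b, Pou2af1 and Cd74) were well above background on all 8 arrays. The Ms4a1 probe was above background on 3 arrays, 1 Cd22 probe on 5, and the Blk probe and the other Cd22 probe on none. Tests covered the 27661 probes that were well above background on at least 2 arrays, which included 6 of the 8 B cell gene probes. As this is whole liver, fewer B cells and less RNA per B cell cannot be told apart.

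The tissue label was checked on hepatocyte genes. All 8 measured hepatocyte genes (Alb, Apoa1 and others) were above background on all 8 arrays, and their summed level stayed between 11.3 and 11.6. Birc5, which encodes Survivin, was lower in Mxcre+ at each time, with levels of -0.25 against -2.80 at 0 h and 5.03 against -1.20 at 48 h. Between 60.2% and 66.0% of spots were well above background. Arrays at 0 and 24 h were on 1 slide and those at 36 and 48 h on the other. Of 4 Y-linked genes, 3 or 4 were above background on both 24 h arrays and on the Mxcre- arrays at 36 and 48 h, and 0 on the other 4 arrays. Y-linked signal thus varied with time and genotype, and its part in the results was not tested beyond the covariate named below.

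**Figure D1:**
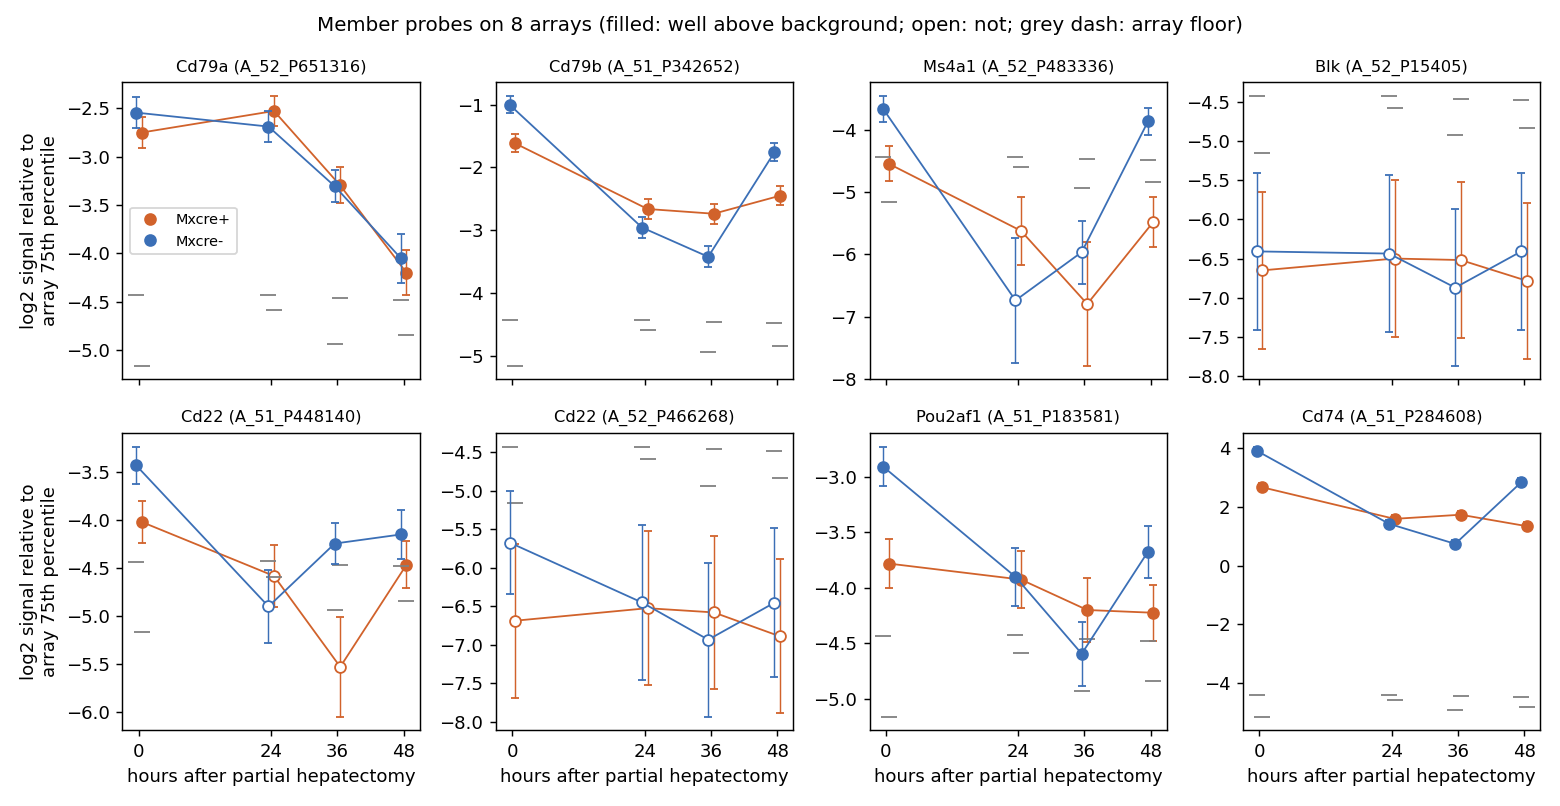
Log2 level of each of the 8 probes (vertical axis, with the 75th percentile of its array at 0) against hours after partial hepatectomy, Mxcre- and Mxcre+ in separate colours, 1 array per point. Filled points were well above background and open points were not, error bars are the scanner's error of the single spot turned to the log2 scale, and grey dashes mark the lowest signal well above background on that array. Cd79b, Pou2af1 and Cd74 were lowest on the Mxcre- 36 h array, while Cd79a was lowest at 48 h in both genotypes.

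The genes of the signalling subunits, Cd79a and Cd79b, were lowest at different times, and the difference between them was not tested. Cd79a (probe A_52_P651316, gene at chromosome 7, 24897497 to 24901858, GRCm38.p6) had levels of -2.55, -2.69, -3.31 and -4.05 in Mxcre- at 0, 24, 36 and 48 h. In Mxcre+ its levels were -2.75, -2.53, -3.30 and -4.20. Levels were alike at 0 and 24 h, lower at 36 h and lowest at 48 h, and the genotypes overlapped throughout, with pair differences between -0.21 and 0.16. At 48 h Cd79a was 2.78-fold lower than at 0 h, a log2 difference of -1.48 ± 0.15 (SE, adjusted p = 0.0146 by limma with Benjamini-Hochberg adjustment over all probes). It was lower in both genotypes, by 1.50 in Mxcre- and 1.45 in Mxcre+ on the log2 scale. Its 48 h levels lay near the lowest signal well above background on the array, -4.48 in Mxcre- and -4.84 in Mxcre+. Spot errors there were 19.2% and 17.5%, against 11.6% and 11.5% at 0 h. Cd79a was the 1 of 6 tested B cell gene probes called at 48 h, where 7.96% of all tested probes were called lower. The call ended when either 0 h array or either 48 h array was left out (adjusted p 0.0580 to 0.0813, differences -1.37 to -1.58) or with Y-linked level as a covariate (-1.49, adjusted p = 0.0502, limma). With normexp background correction, an offset of 50 and quantile normalization, Cd79a was only 1.15-fold lower at 48 h (adjusted p = 0.0440, limma). That offset is of the order of its intensities, 19.8 to 61.7, and draws ratios toward 1. On the Mxcre+ arrays at 0, 36 and 48 h, none of which held Y-linked signal above background, Cd79a was at -0.55 and -1.45 relative to 0 h at 36 and 48 h. These are single arrays that cross the slides, and the part of Y-linked signal was not tested on them.

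Cd79b (A_51_P342652, chromosome 11, 106311341 to 106314562) had levels of -1.0, -2.96, -3.42 and -1.76 in Mxcre- at 0, 24, 36 and 48 h. In Mxcre+ its levels were -1.62, -2.66, -2.74 and -2.45. Both 0 h arrays were above all 6 later arrays, and the Mxcre- series went lowest at 36 h and was higher again at 48 h. In Mxcre- the 36 h level was 5.36-fold under that at 0 h and 3.17-fold under that at 48 h, both gaps beyond the spot errors of 10.2% to 12.4%. In Mxcre+ the level at 36 h was 2.18-fold under that at 0 h and at 48 h was 1.22-fold above that at 36 h. Over both genotypes the level of Cd79b at 24, 36 and 48 h was 2.83-, 3.42- and 1.74-fold under that at 0 h. None of these passed the threshold (limma adjusted p = 0.0852, 0.0526 and 0.220), and with normexp and the offset the folds were 1.39, 1.42 and 1.22. With 1 probe per gene in the adjustment, both Cd79b (adjusted p = 0.0457, limma) and Cd79a (adjusted p = 0.0441, limma) passed at 36 h.

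CD20 and CD22 are surface proteins of mature B cells. Ms4a1 (A_52_P483336, chromosome 19, 11249679 to 11266149) was well above background on the 0 h arrays, at -3.65 in Mxcre- and -4.54 in Mxcre+, and on the Mxcre- 48 h array at -3.86. It was not well above background on the other 5 arrays, where measured levels ran from -6.80 to -5.47. Detection was thus limited to 0 h in both genotypes and to 48 h in Mxcre-. For a bound, the dim arrays were set at the lowest signal well above background on the array. Ms4a1 was then at least 1.33-fold lower at 24 h and at least 1.52-fold lower at 36 h than at 0 h (limma adjusted p = 0.119 and 0.0817 on the measured values).

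The Cd22 probe detected on 5 arrays (A_51_P448140, chromosome 7, 30865404 to 30880342) had levels of -3.43, -4.24 and -4.15 in Mxcre- at 0, 36 and 48 h. In Mxcre+ it had -4.02 at 0 h and -4.46 at 48 h. The 24 h arrays and the Mxcre+ 36 h array did not reach well above background, and the 2 arrays at 0 h were the brightest. It was at least 1.72-fold lower at 24 h than at 0 h and, with both arrays measured, 1.50-fold lower at 48 h (limma adjusted p = 0.165 and 0.333). With dim values set at the background level, an alternative chosen after seeing the data, the 24 h difference of -0.78 passed (adjusted p = 0.0488, limma). The other Cd22 probe (A_52_P466268) was not well above background on any array, so the 2 probes disagreed on detection.

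Blk (A_52_P15405, chromosome 14, 63372837 to 63417187), the B lineage Src-family kinase, was not well above background on any array. Its intensity was between 3.23 and 4.96, and no fold was taken.

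Pou2af1 (A_51_P183581, chromosome 9, 51213690 to 51240079) had levels of -2.91, -3.90, -4.59 and -3.68 in Mxcre- at 0, 24, 36 and 48 h. In Mxcre+ its levels were -3.78, -3.93, -4.20 and -4.23. Its highest and its lowest array were both Mxcre-, at 0 and 36 h, and the Mxcre+ arrays lay between them with a span of under a doubling. Over both genotypes it was 1.48-, 2.07- and 1.52-fold lower at 24, 36 and 48 h than at 0 h (limma adjusted p = 0.320, 0.0971 and 0.257). In Mxcre- alone the 36 h level was 3.22-fold under that at 0 h, and in Mxcre+ 1.34-fold under it, with spot errors of 13.2% to 22.3%.

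Cd74 (A_51_P284608, chromosome 18, 60803849 to 60812652) had levels of 3.93, 1.43, 0.74 and 2.85 in Mxcre- at 0, 24, 36 and 48 h. In Mxcre+ its levels were 2.68, 1.60, 1.74 and 1.35. Its order in Mxcre- was that of Cd79b and Pou2af1, high at 0 h, lowest at 36 h and higher at 48 h, while in Mxcre+ only the 0 h array stood out. In Mxcre- it was 9.09-fold lower at 36 h than at 0 h and 4.32-fold higher at 48 h than at 36 h, with a spot error of 10%. In Mxcre+ the 36 and 48 h levels were 1.92- and 2.52-fold under that at 0 h. Over both genotypes it was 3.46-, 4.18- and 2.30-fold lower at 24, 36 and 48 h (limma adjusted p = 0.161, 0.101 and 0.261). Leaving out 1 array moved the 36 h difference between -1.13 and -2.99 on the log2 scale.

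Arrays were also ordered within each probe and neighbours in that order compared with their combined spot errors, which cover the measurement of 1 spot and not animals. Of the 7 neighbouring steps, 4 lay within that error for Cd79b and for Cd74, 5 for Cd79a and 6 for Pou2af1. The steps between neighbours were thus mostly not resolved for Cd79a and Pou2af1, although their ends differed 3.18- and 3.22-fold. Among arrays above background, 3 of 4 steps for Cd22 and 1 of 2 for Ms4a1 lay within the error.

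Against 0 h, the 6 tested B cell gene probes had a median log2 difference of -1.26 at 24 h, -1.47 at 36 h and -0.70 at 48 h. The median of all 14142 tested genes was -0.03, -0.06 and -0.08. At 24 h 5 of 6 were negative, all but Cd79a (0.04 ± 0.15, SE), and at 36 and 48 h all 6. Probes such as that of Ms4a1 entered the fit through their 0 h arrays, so these medians and the counts below describe the tested probes only. With the 4 probes above background on all arrays the medians were -1.04, -1.41 and -1.0. With normexp and the offset of 50, the medians of the 6 probes were -0.09, -0.10 and -0.13, and with the deposited matrix -1.20, -1.26 and -0.57. The size of the folds of these dim probes thus depends on the background correction, and that of Cd74 much less (2.99-, 3.56- and 2.16-fold lower). No probe was called at 24 h (0 of 6, where limma called 7.15% of all probes, 4.15% lower). At 36 h 0 of 6 were called, against 11.4% of all (6.37% lower), and at 48 h 1 of 6, against 13.5% (7.96% lower). At an unadjusted p under 0.05, 2 of the 4 probes above background on all arrays were lower at 24 h and 4 of 4 at 36 h, where 16.5% and 21.2% of all tested probes were. Counting Ms4a1 and Cd22, which were dim at those times, they were 4 of 6 and 6 of 6. Slide and time cannot be told apart for 36 and 48 h against 0 h. The 24 h comparison lay within 1 slide, and so did 48 against 36 h, where Cd79a differed by -0.74 in Mxcre- and -0.90 in Mxcre+. Both 24 h arrays held Y-linked signal above background and neither 0 h array did. Time and Y-linked signal thus cannot be told apart on those arrays.

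**Figure D2:**
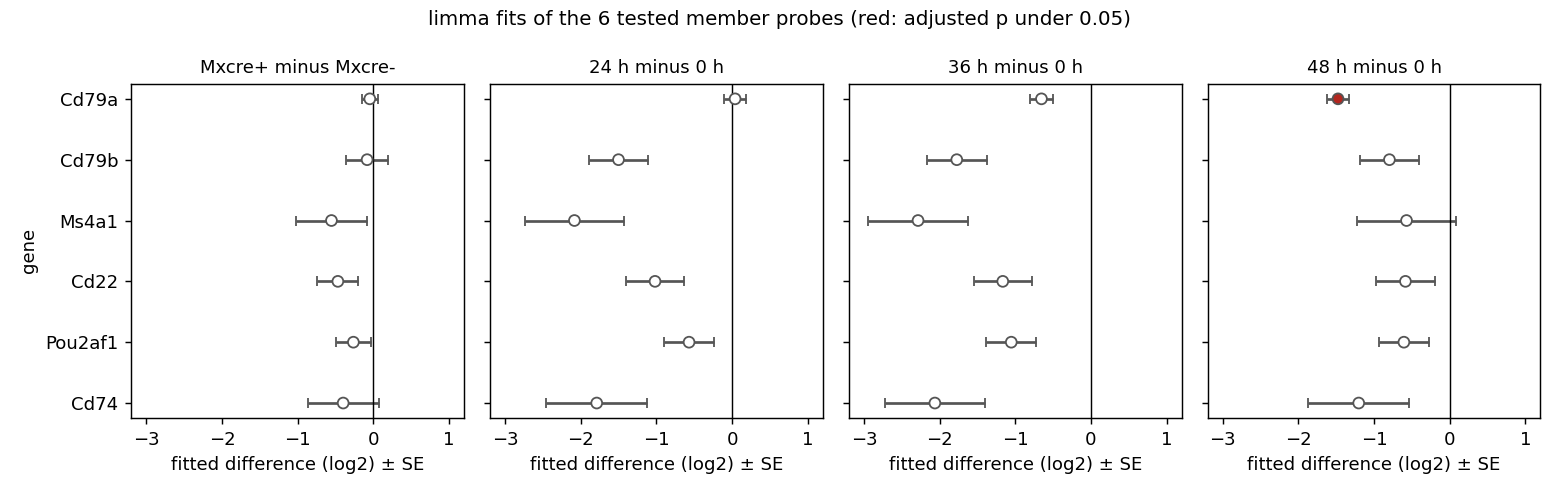
Fitted log2 differences (horizontal axis) with their standard errors for the 6 tested B cell gene probes: Mxcre+ minus Mxcre- over the 4 times, and each time minus 0 h over both genotypes. Red marks an adjusted p under 0.05, which held for Cd79a at 48 h alone, at -1.48.

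The genotypes were then compared. Over the 4 times, Mxcre+ minus Mxcre- was -0.05 ± 0.11 (SE) for Cd79a, -0.08 ± 0.28 for Cd79b and -0.26 ± 0.23 for Pou2af1. It was -0.40 ± 0.47 for Cd74 (-0.86 to -0.03 with 1 array left out), -0.47 ± 0.27 for Cd22 and -0.55 ± 0.46 for Ms4a1. All 6 estimates were negative, as were 55.5% of those of all 14142 tested genes. That of Cd79a was positive with normexp (0.0045) and with the deposited matrix (0.043) and that of Ms4a1 with the Y-linked covariate (0.086). Without a 0 h array those of Cd79a (0.0066) and Cd79b (0.096) were positive, and without a 48 h array that of Cd79b (0.12). In the reported fit none was called by limma (adjusted p 0.745 to 0.947), and 0 of 6 had an unadjusted p under 0.05. Of all probes 0% were called, and 1901 had an unadjusted p under 0.05. Within slide 1 (0 and 24 h) the mean difference was -0.54 for Cd74 and -0.16 for Cd79b, and within slide 2 (36 and 48 h) it was -0.26 and -0.0035. For Pou2af1 the values within slide 1 and slide 2 were -0.45 and -0.08, for Cd79a -0.02 and -0.07 and for Cd22 -0.14 and -0.80. Ms4a1 differed in direction between slides, 0.12 and -1.22, on values mostly not above background.

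Within single times the genotypes differed in opposite directions. For Cd74, Mxcre+ minus Mxcre- at 0, 24, 36 and 48 h was -1.25, 0.17, 1.00 and -1.51. For Cd79b it was -0.62, 0.29, 0.69 and -0.69, and for Pou2af1 -0.87, -0.02, 0.39 and -0.55. These 3 genes were lower in Mxcre+ at 0 and 48 h and higher at 36 h, while Cd79a stayed within -0.21 and 0.16. For Pou2af1 the spot errors at 36 h were 22.3% and 21.9%, so its direction at that time is not clearly resolved. Among genes above background on both arrays of a time, 6 of 6 B cell genes were lower in Mxcre+ at 0 h, 1 of 4 at 24 h, 0 of 4 at 36 h and 5 of 5 at 48 h. Of all genes so measured, 6750 of 13053, 6144 of 12865, 6675 of 12736 and 6868 of 12902 were lower. The 36 h count held Cd79a at a difference of 0.0079 and left out Cd22, which was above background on the Mxcre- array alone. With its dim array set at the background level, Cd22 was at least 0.22 lower in Mxcre+ at 36 h (1.29 as measured). A 2-fold lower level was reached by Cd74 at 0 h (2.23% of all probes) and at 48 h (3.02%), where 1.27% and 2.34% of all probes were 2-fold higher. No B cell gene was 2-fold apart at 24 h (1.18% of all probes lower, 0.800% higher) or at 36 h (2.18% lower, 2.32% higher), with Cd74 just under it at 36 h. Each of these pairs is 1 array against 1, without a test.

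**Figure D3:**
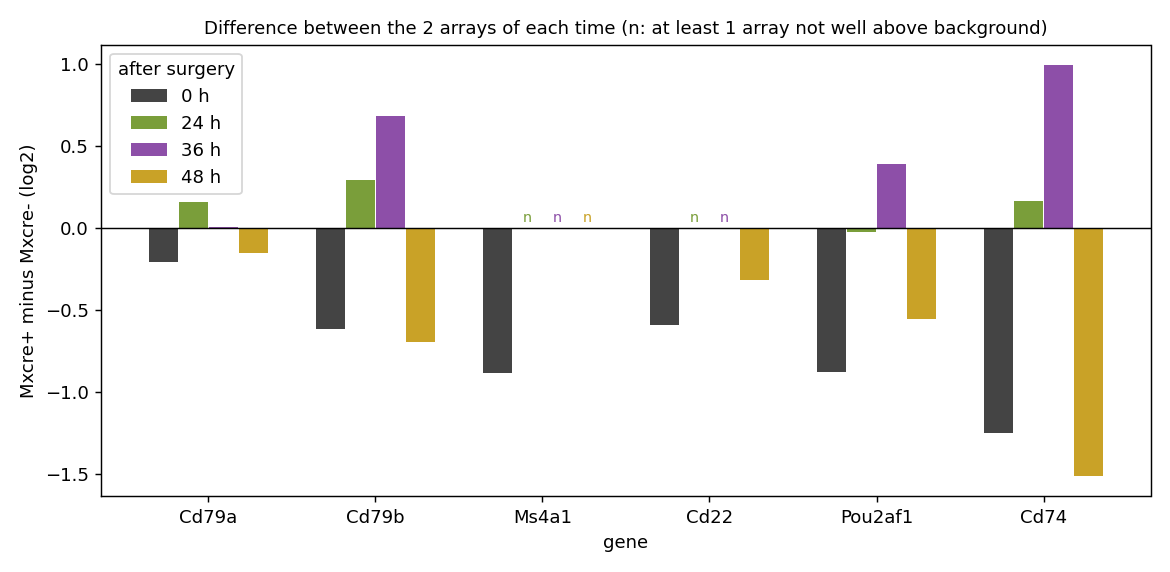
Mxcre+ minus Mxcre- level (log2, vertical axis) within each time for each B cell gene probe, drawn only where both arrays were well above background and marked n otherwise. Bars for Cd79b, Pou2af1 and Cd74 point down at 0 and 48 h and up at 36 h, with Cd74 ranging from -1.51 to 1.00.

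An interaction term tested whether the genotypes differed by another amount on the 3 later pairs of arrays than on the 0 h pair. The estimates were 1.14 ± 1.06 (SE) for Cd74, 0.81 ± 0.44 for Pou2af1, 0.71 ± 0.62 for Cd79b, 0.44 ± 1.17 for Ms4a1, 0.21 ± 0.25 for Cd79a and 0.16 ± 0.69 for Cd22. None was called (limma adjusted p 0.902 to 0.987, 0 of 6 with an unadjusted p under 0.05), where 0.159% of all probes were.

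Other white cell genes moved over the same arrays. At 0 h, the median difference of Mxcre+ from Mxcre- was -0.81 for the pan-leukocyte genes (Ptprc, Laptm5 and others, 8 of 8 lower) and -0.89 for T and NK cell genes (14 of 16 lower). It was -0.73 for macrophage and Kupffer cell genes (13 of 13 lower) and -2.99 for neutrophil genes (9 of 9 lower). B cell genes, at a median of -0.74, were therefore not alone in being lower on the Mxcre+ 0 h array, and the hepatocyte median was -0.09. At 36 h, macrophage genes (0.83), neutrophil genes (1.22) and pan-leukocyte genes (0.55) were higher in Mxcre+, as were the B cell genes (0.54). T and NK cell genes were not, with a median of -0.08 (5 lower and 3 higher). At 48 h the B cell genes (-0.55) and T and NK cell genes (-0.30) were lower in Mxcre+, whereas macrophage (0.26), neutrophil (1.80) and pan-leukocyte genes (0.20) were higher. The wider B lineage list described below did not share this, with a pair median of 4.99e-05 at 48 h (10 lower and 11 higher). Its medians at 0, 24 and 36 h were -0.48, -0.06 and 0.21. The summed level ran over arrays from 3.30 to 4.03 for pan-leukocyte genes, 5.15 to 6.30 for macrophage genes, 2.89 to 3.58 for T and NK cell genes and 3.76 to 7.90 for neutrophil genes. At 24 h the neutrophil sum (7.90 in Mxcre- and 7.86 in Mxcre+) was mostly Lcn2, at 7.54 and 7.67. The mean level of the neutrophil genes ran from -2.59 (Mxcre+ 0 h) to 0.99 (Mxcre+ 48 h). The part of these white cells in the B cell gene values was not tested.

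Over time, 1 of the 8 T and NK cell genes above background on all arrays was called lower at 24 h, 4 at 36 h and 3 at 48 h, with medians of -0.38, -0.89 and -0.86. Over all 16 tested genes the medians were -1.13, -1.32 and -0.99, with 5, 8 and 5 called, but Gzma, Cd3g and Klrd1 entered through their 0 h arrays alone. Thy1 went the other way, at 1.16 ± 0.36 at 24 h (SE, adjusted p = 0.118, limma). The T cell receptor chain genes Cd3d (-1.64 ± 0.25, SE, adjusted p = 0.0318, limma) and Cd3e (-0.93 ± 0.16, adjusted p = 0.0375, limma) fell at 36 h. For Cd3d the Mxcre+ 36 h array was not well above background, at -4.50 beside a lowest signal well above background of -4.46. Pan-leukocyte genes had 0 of 8 called at each time, and medians of -0.34, -0.29 and 0.11, with 0 of 8 at an unadjusted p under 0.05 at each time. Neutrophil genes had positive medians at each time (0.73, 0.96 and 1.08) and 0 of 11 called by limma. Of these, 1 (Lcn2) was higher at an unadjusted p under 0.05 at each time. Macrophage genes had 1 of 13 called lower at each time. The medians of T and NK cell genes above background on all arrays and of pan-leukocyte genes were thus close at 24 h, and no difference between lists was tested.

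A wider list of B lineage and B cell receptor signalling genes held 34 genes, all with a probe, of which 25 were tested and 15 were above background on all arrays. Over genotype, 0 of 25 were called, 0 had an unadjusted p under 0.05, and the median was -0.19 with 19 negative. At 24 h 2 of 25 were called lower, at 36 h 4 lower and 1 higher, and at 48 h 3 lower, beside 4.15%, 6.37% and 7.96% of all probes called lower. These counts hold Fcmr, which entered through its 0 h arrays, at 24 and 36 h. Among the 15 genes above background on all arrays, 1, 2 and 3 were called lower. The medians were -0.29, -0.59 and -0.20 over the 25 genes and -0.18, -0.21 and -0.09 over these 15. Several genes of the list, such as Lyn, Syk, Inpp5d and Ptpn6, are expressed in other white cells too.

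Vpreb3, an assembly factor of the B cell receptor, was 3.18-fold lower at 48 h (adjusted p = 0.0444, limma). Fcgr2b, the inhibitory IgG receptor, which sinusoidal endothelium also makes, fell at all 3 times, by 0.91, 0.77 and 0.72 on the log2 scale (limma adjusted p = 0.0442, 0.0477 and 0.0492). Cd72, an inhibitory coreceptor, was 3.11-fold lower at 36 h on the measured values (adjusted p = 0.0249, limma). With the 1 of 2 arrays that was not above background set at the background level, the Cd72 fold was 2.82. Fcmr, the IgM receptor, was above background on both 0 h arrays only. It was at least 1.47-fold lower at 24 h and at least 1.68-fold lower at 36 h. As it was tested through those 0 h arrays, its adjusted p of 0.0459 and 0.0298 (limma, on values below background) is no support for a change. Pik3ap1, a phosphoinositide 3-kinase adaptor, rose 2.73-fold at 36 h (adjusted p = 0.0276, limma). Among genes measured on all arrays, the genotype differences of Ralgps2 (0.39) and Syk (-0.23) were among the 3 largest and were not called.

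Further genes that define B cells were not well above background on any array. These were 8 of the 34, among them the transcription factors Pax5 and Ebf1, the receptors Cxcr5, Fcer2a and Tnfrsf13c, and Pou2f2, which encodes the octamer factor OCT-2 that OCA-B binds. Cd79a, Cd79b, Vpreb3 and Pou2af1 were above background on all 8 arrays.

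Of 9 measured plasma cell genes, Irf4, Prdm1 and Slamf7 were above background on none of the arrays and 5 genes were tested. Jchain, which joins secreted immunoglobulin, had levels in Mxcre- of 1.22, -0.99, -1.5 and -0.67 and in Mxcre+ of 0.15, -0.73, -0.28 and -0.86. Both 0 h arrays were above every later array, and the 24 h difference was -1.54 ± 0.54 (SE, adjusted p = 0.144, limma). Mzb1, a chaperone of B and plasma cells, fell by 0.81 at 24 h and by 0.93 at 36 h on the log2 scale (limma adjusted p = 0.0488 and 0.0359). Derl3 rose 12.7-fold and Fkbp11 6.92-fold at 24 h (limma adjusted p = 0.0307 and 0.0236). Both encode proteins of the endoplasmic reticulum that are not limited to plasma cells.

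Of 8 B cell precursor genes, the recombinase genes Rag1 and Rag2 and the surrogate light chain gene Igll1 were above background on no array. The other surrogate light chain gene, Vpreb1, and Dntt, a polymerase of antigen receptor gene assembly, were above background on all 8 arrays, with 24 h differences of -0.20 ± 0.35 and -0.20 ± 0.62 (SE, limma adjusted p = 0.751 and 0.858). Mme fell 9.31-fold at 24 h and 6.12-fold at 36 h on the measured values (limma adjusted p = 0.0306 and 0.0332). At 24 h 1 of 2 arrays was not above background, and with it set at the background level the fold was 8.44. Cd93, which endothelial cells also express, rose 3.35-, 3.63- and 4.29-fold at 24, 36 and 48 h (limma adjusted p = 0.0276, 0.0231 and 0.0127). Mme and Cd93 are made by cells other than B cell precursors.

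Cd74 acts with MHC class II, and 10 of 11 listed genes of that pathway had a probe. The 8 tested genes had 0 called in any comparison, with medians of -1.10, -1.25 and -0.77 at 24, 36 and 48 h. At an unadjusted p under 0.05, 4 of 8 were lower at 24 h, 4 at 36 h and 0 at 48 h (limma). The alpha chain gene H2-Aa had levels of 0.27, -2.20, -2.50 and -0.98 in Mxcre- and -0.96, -1.92, -1.93 and -2.41 in Mxcre+. The beta chain gene H2-Ab1 had 3.72, 1.05, 0.65 and 2.34 in Mxcre- and 2.09, 1.31, 0.94 and 0.57 in Mxcre+. Both were highest on the Mxcre- 0 h array and, in Mxcre-, lowest at 36 h and higher at 48 h, the order seen for Cd74.

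At 24 h, H2-Aa was -1.72 ± 0.57, H2-Ab1 -1.72 ± 0.64 and Ciita, the transactivator of class II genes, -1.65 ± 0.49 (SE, limma adjusted p = 0.134, 0.161 and 0.106). Their genotype differences were -0.45, -0.71 and -0.64 (limma adjusted p 0.742 to 0.794). By pairs, 8 of 8 class II genes were lower in Mxcre+ at 0 h (median -1.05), 6 of 7 higher at 36 h (0.57) and 6 of 8 lower at 48 h (-1.09). H2-DMb2 and H2-Ob, whose products are most abundant in B cells, were above background on none of the arrays. H2-Oa, another gene of the class II list, was above background on 5 arrays, among them both 0 h arrays and neither 36 h array. Dendritic cell genes had pair medians of 0.03, -0.01, -0.08 and -0.45 at the 4 times, with Ccr7, Cd209a and Ccl22 above background on no array and 0 of 7 called in any comparison. The part of dendritic cells and macrophages in the Cd74 signal was not tested.

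**Figure D4:**
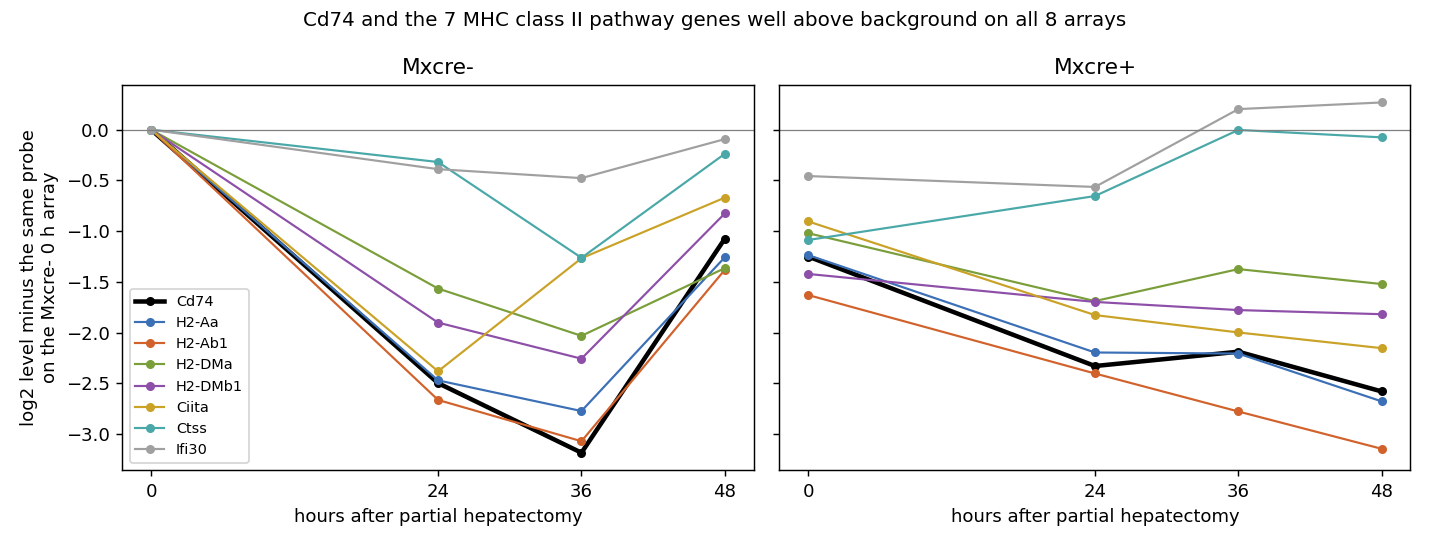
Level of Cd74 and of the 7 MHC class II pathway genes above background on all 8 arrays, each minus its own Mxcre- 0 h array (log2, vertical axis), against hours after surgery, with Mxcre- on the left and Mxcre+ on the right. H2-Aa runs near Cd74 in both panels, whereas Ctss, a lysosomal protease, and Ifi30, a lysosomal reductase, stay closer to 0 than H2-Aa does.

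The genes most like Cd74 over the 8 arrays, among 12882 genes above background on at least 6 arrays, were H2-Aa (Pearson r = 0.987), Pik3cd (0.986), Uba7 (0.973), Fyb (0.973) and H2-Ab1 (0.971). Thus 2 of the 5 were class II chain genes. For the other B cell genes, the mean of 4 centred profiles (Cd79a, Cd79b, Pou2af1 and the detected Cd22 probe) was used. That Cd22 probe was above background on 5 arrays. The profiles were not all alike: Cd79a had r of 0.12 with Cd79b, 0.13 with Cd22 and 0.40 with Pou2af1. Among Cd79b, Cd22 and Pou2af1, r was 0.61 to 0.88. With Cd74, r was 0.97 for Cd79b and 0.94 for Pou2af1. The 10 genes nearest to the mean were 9530091C08Rik (r = 0.990), Nudt16l1, Sirt4, Zfp273, Rnf208, Abca3, Il16, Rmnd5a, Rhbdd3 and Smyd1 (0.971). None of these 10 belonged to a cell type list used here. These r describe 8 unreplicated arrays and are the highest of many genes, and no p was taken.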

How the data were processed

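Total RNA from 8 mouse livers or pools was measured on Agilent 1-colour (Cy3) arrays, 1 per genotype and time. Times are from the titles and the series design, although a treatment note in the labels places the analysis 1 week after surgery. The authors deposited scanner files whose processed signal is a background-subtracted intensity from Feature Extraction 10.7.3.1, per the file headers (10.7 per the submitters' processing notes). They also deposited a matrix of log2 values, whose scale was found from the values (median 5.51 in every column, r of at least 0.999 with the column's own array) and which was used as an alternative. It fitted a quantile normalization, and its centring step is not stated.

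Here control and outlier spots were left out (41056 of 41174 probes kept). Log2 of the processed intensity minus the array's 75th percentile was tested with limma 3.58.1 in R 4.3.3 (with data.table, version 1.17.8). The model held time and genotype (3 residual degrees of freedom), or also genotype by after-surgery (2). Probes above background on at least 2 arrays entered, with Benjamini-Hochberg adjustment over all of them and a threshold of 0.05. Of all probes, 26839 were named through RefSeq accessions. For a gene in a list, the probe with the highest mean signal was used. Named genes were all B cell genes and, per list, those that passed or else those with the largest difference. The genes and lists were chosen with earlier results of these data known. Alternatives were normexp (offset 50, on median signal, since the files used hold no mean signal) with quantile normalization, the deposited log2 matrix, no filter, 1 probe per gene, each array left out, each slide alone, a Y-linked covariate and a floor for dim values. The floor, and the Y-linked covariate in the time comparisons, were chosen after seeing the data. The number of arrays limits the precision. Some genes of the lists are counted but not reported here by name. The fits were checked on simulated data.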

Additional observations from a re-analysis of the deposited data

Results flagged for a closer look

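Mxcre+ and Mxcre- changed places between times for 2 B cell genes by at least 0.5 on the log2 scale in each direction, a size chosen after seeing the data. These contrasts are single arrays and the differences were not tested. For Cd79b, the difference of Mxcre+ from Mxcre- moved from -0.62 at 0 h to 0.69 at 36 h, by 1.30, and from there to -0.69 at 48 h, by -1.38. For Cd74 it moved from -1.25 at 0 h to 1.00 at 36 h, by 2.25, and to -1.51 at 48 h, by -2.50. At 36 and 48 h the Mxcre- array held Y-linked signal and the Mxcre+ array did not, while at 0 h neither did.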

How the results depend on the processing

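The genotype count stayed at 0 of 6 B cell gene probes under every alternative run. At 24 h it became 1 with dim values at the floor, at 36 h 2 with 1 probe per gene and 1 with dim values at the floor, and at 48 h 0 with the Y-linked covariate. With each array left out, counts ran from 0 to 0 for genotype, 24 h, 36 h and the changed difference, and from 0 to 1 at 48 h. The sign turned for the Cd79a genotype difference with normexp and quantile (0.0045) and with the deposited matrix (0.043), and for that of Ms4a1 within slide 1 (0.12) and with the Y-linked covariate (0.086). With an array left out, the genotype difference ran from -0.12 to 0.0066 for Cd79a and from -0.34 to 0.12 for Cd79b, the 24 h difference of Cd79a from -0.10 to 0.18, and the 48 h difference of Ms4a1 from -1.28 to 0.14. The changed difference ran from -0.21 to 0.59 for Cd22 and from -0.34 to 1.03 for Ms4a1, and without a 0 h array it could not be fitted. The cause was not tested. Over all probes, calls at 24 h were 1978 in the reported fit, 3344 with normexp, 90 without a filter and 0 with the Y-linked covariate. At 36 h they were 3150, 307 without a filter and 117 with the covariate, at 48 h 3721, 1458 and 865, and for the changed difference 44, 2 with normexp and 19 without a filter. With normexp the 36 h median of the 6 probes was -0.10 in place of -1.47. Signal near background limits Ms4a1, Cd22 and Blk. Animals could not be paired, because the labels give no replicate numbers. The genotypes were paired by time, which is a term of the reported fit.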
